A study of Mus musculus with 18 samples.

Results

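The comparison described here asks whether kidneys labelled Aprt KO departed from control kidneys by the same amount at 7 days and at 1 month of age, gene by gene. The measure is a difference of differences: the log2 difference between Aprt KO and control at 1 month, minus the same difference at 7 days. All 18 arrays of the series entered it. At 7 days there were 6 control mice and 6 mice labelled Aprt KO, with 3 females and 3 males of each. At 1 month there were 3 of each, with 1 female and 2 males of each. The labels give the strain as C57 and the tissue as kidney for all of them, and the series text gives Aprt-/- against Aprt+/+. For each Aprt KO mouse the labels name 1 control from its litter, of matching sex, so that there are 9 litter pairs, numbered 1 to 6 at 7 days and 7 to 9 at 1 month. No mouse was measured at both ages. Batches of RNA or arrays were not analysed here. The replicates are separate mice.

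Aprt encodes adenine phosphoribosyltransferase, which returns free adenine to the nucleotide pool. Without it adenine is oxidised by xanthine oxidase to 2,8-dihydroxyadenine, which is poorly soluble in urine and crystallises in the tubules; the series title names kidney stones. At 7 days the nephrons of the mouse kidney are still maturing, whereas at 1 month they are complete. Tubular cells under injury typically switch on secreted markers such as Lcn2 and Clu, immediate early transcription factors and signalling by NF-kB and the IL-6 family, and lasting injury is followed by deposition of collagen and proteoglycans by stromal cells.

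The labels were checked first. The brightest of the 3 Aprt probe sets read 148, 138, 141 and 148 in the 7-day controls of pairs 3 to 6, but 66.3 and 51.3 in those of pairs 1 and 2. The 7-day arrays labelled Aprt KO read 41.9 to 58.1 in 5 pairs and 135 in pair 4. At 1 month the controls read 104 to 109.5, and the arrays labelled Aprt KO read 86.5, 57.8 and 52.3. By the midpoint between the group medians of each age, 4 arrays lay on the other group's side: the controls of pairs 1 and 2 and the Aprt KO arrays of pairs 4 and 7. Aprt was dim on this array, and its difference of differences was 0.04 (SE 0.41, limma unadjusted p = 0.925). Kidney markers were high throughout, with Slc34a1, the proximal tubule phosphate transporter, at 4241 to 8585 at 7 days and 11925 to 15438 at 1 month. Both arrays of pair 4 had a compressed top of the signal range, with highest signals of 10767 and 10167 against 25718 to 51453 on the other arrays. Results are therefore also given without the 4 arrays and without pair 4.

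Of the 23 genes called below, 13 were called higher at 7 days and not called at 1 month. Some of those belong to signalling routes whose transcription factors have known motifs, so a few of their promoters are shown to let these letters be seen. The windows hold the 250 bases before the transcription start, taken from RefSeq on GRCm38.p6, 5′ to 3′ on the gene's strand, with any match to 1 of 4 motifs in capitals. The motifs were GGG, any 2 bases and TTTCC for NF-kB, TTCCNGGAA for STAT, TGA, any base and TCA for AP-1 (the dimer of Fos and Jun proteins) and TTGCNNAA for C/EBP, searched on both strands. Sprr2f and Sprr2i, on the plus strand at chr3:92364937-92365186 and chr3:92407741-92407990, are shown as neighbouring members of one family that rose by different amounts. Serpina3n, at chr12:104406458-104406707, and Il1rn, in 1 of its listed start windows, at chr2:24345121-24345370, both on the plus strand, are shown for their NF-kB match.
Sprr2f: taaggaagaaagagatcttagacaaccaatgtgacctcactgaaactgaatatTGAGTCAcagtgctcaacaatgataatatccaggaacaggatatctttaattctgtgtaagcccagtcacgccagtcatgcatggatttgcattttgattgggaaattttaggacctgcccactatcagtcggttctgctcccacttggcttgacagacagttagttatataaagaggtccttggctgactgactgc
Sprr2i: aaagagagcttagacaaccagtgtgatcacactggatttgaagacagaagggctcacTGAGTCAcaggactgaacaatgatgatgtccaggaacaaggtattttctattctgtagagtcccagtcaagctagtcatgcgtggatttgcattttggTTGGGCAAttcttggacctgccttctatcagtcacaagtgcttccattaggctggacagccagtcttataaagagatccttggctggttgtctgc
Serpina3n: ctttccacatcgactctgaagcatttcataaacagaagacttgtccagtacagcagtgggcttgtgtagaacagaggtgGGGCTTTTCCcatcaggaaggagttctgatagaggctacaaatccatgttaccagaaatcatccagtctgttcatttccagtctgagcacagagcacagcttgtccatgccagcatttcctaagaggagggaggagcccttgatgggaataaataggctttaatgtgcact
Il1rn: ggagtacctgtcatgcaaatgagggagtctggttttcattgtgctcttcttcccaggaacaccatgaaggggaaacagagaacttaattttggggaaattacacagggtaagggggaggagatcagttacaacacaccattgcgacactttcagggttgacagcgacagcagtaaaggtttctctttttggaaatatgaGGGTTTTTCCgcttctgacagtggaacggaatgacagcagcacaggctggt
Both Sprr2 windows hold the letters TGAGTCA, starting at position -197 in Sprr2f and -193 in Sprr2i, and Sprr2i also holds a C/EBP match at -95. The 2 windows were identical in 190 of 262 aligned columns. Of the 13 genes, 10 had a promoter in the table. An NF-kB match stood in 3 of those 10 (Il1rn, Serpina3n and Tmem176a) and in 1.91% of the 4648 tested genes with a promoter. An AP-1 match stood in 3 of 10 (Sprr2f, Sprr2i and Il1rn, the last in a start window that is not shown) and in 5.87% of the tested genes. For C/EBP the figures were 1 of 10 and 9.44%, and for STAT 0 of 10 and 1.2%. A match is a string of letters in this window and was not tested as a binding site.

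The difference of differences passed the test (limma, Benjamini-Hochberg adjusted p under 0.05 over 5744 genes) in 23 genes, or 0.4% of those tested, and 307 genes had an unadjusted p under 0.05. In 15 genes (0.261%) the Aprt KO effect was more negative at 1 month than at 7 days, and in 8 (0.139%) it was more positive. Blocking by litter pair gave 93 called genes (1.62%), 38 more negative and 55 more positive, and all 23 were among them. The 23 fell into classes by the effect at each age. There were 16 genes called at 7 days and not at 1 month, 13 of them higher and 3 lower in Aprt KO. There were 4 called at 1 month and not at 7 days, 1 called at both ages and 2 called at neither age on its own. An effect that was not called at an age was not shown to be absent there. In all 23 genes the 6 littermate differences at 7 days and the 3 at 1 month did not overlap, as in 6.79% of all genes tested. The 23 were selected for a difference between these same values, so the count describes them and supports nothing.

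**Figure D1:**
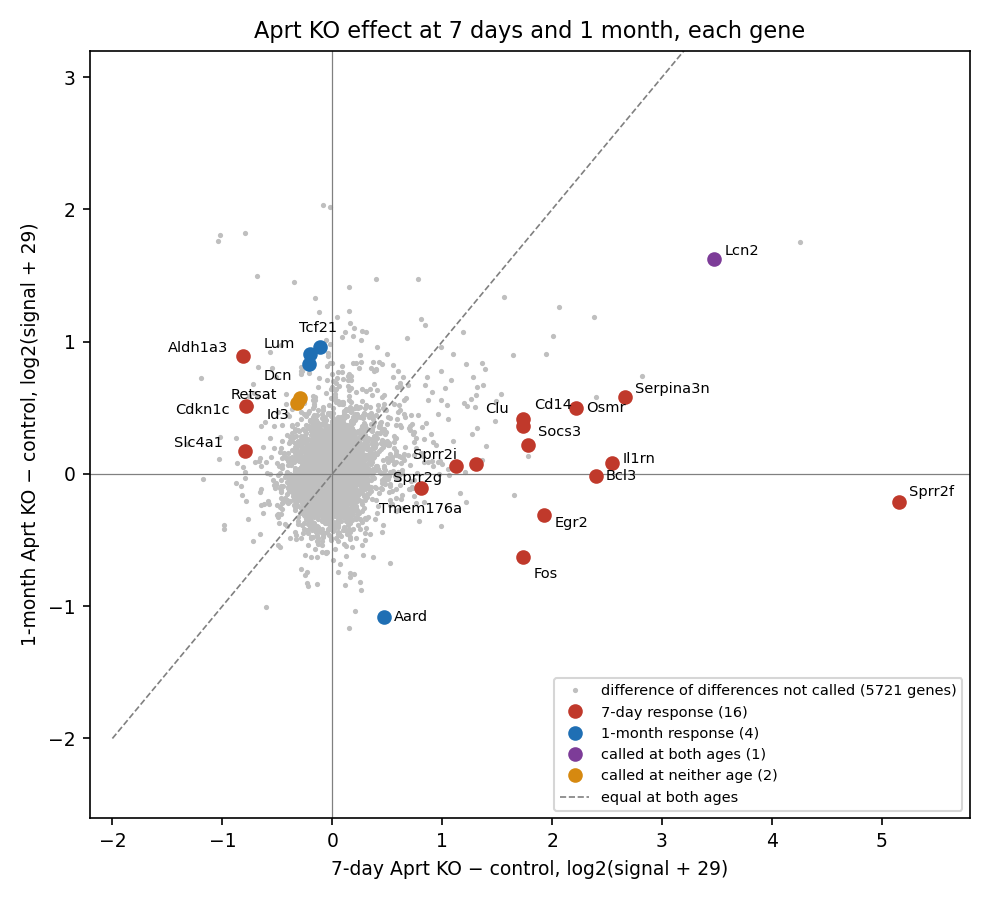
Aprt KO minus control at 7 days (x axis) against 1 month (y axis), in log2(signal + 29), for 5744 genes; coloured points are the 23 genes whose difference of differences was called, grey points the other 5721, and the dashed line marks equal effects. Sprr2f lies at 5.16 on the x axis and -0.21 on the y axis, Lcn2 is the 1 coloured gene with called effects at both ages, and Dcn, Lum and Tcf21 lie above 0.8 on the y axis and close to 0 on the x axis.

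In each of the settings named in this paragraph all 23 genes kept their direction. Without the 4 arrays whose Aprt signal went against the label, 7 genes were called, 6 of them among the 23: Sprr2f, Bcl3, Clu, Lcn2, Cdkn1c and Aldh1a3. The median gene of the 23 then kept 100.9% of its estimate, and the gene with the smallest share, Sprr2g, kept 69.3%. Without pair 7, the 1 female pair at 1 month, 8 genes were called, of which Sprr2f, Bcl3, Serpina3n, Cd14, Cdkn1c and Aard belong to the 23. Leaving out either array of pair 7 gives this same fit, since the sex term takes up the other. The Aprt KO array of pair 7 is also the 1 array from 1 month among the 4. At 1 month the settings without pair 7 and without the 4 arrays are therefore not separate checks. Without pair 9, 14 genes were called, 13 of them among the 23, and without pair 4, 26 were called, 20 of them among the 23. Leaving out the control of pair 3 gave 37 calls. Sprr2f and Bcl3 were called in each alternative run for them. When each of the 18 arrays was left out in turn, 6 of the 23 genes kept their call throughout (Sprr2f, Bcl3, Serpina3n, Cd14, Cdkn1c and Aard). Fos, Egr2, Socs3 and Lcn2 lost it without either array of pair 7 alone. Tcf21 lost it in 3 of these 18 fits, Il1rn, Clu, Lum and Dcn in 4, Sprr2i in 5, Retsat in 6 and Osmr in 9. The least stable calls were those of Slc4a1, lost in 11, Sprr2g, Aldh1a3 and Tmem176a, each lost in 13, and Id3, lost in 14.

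The gene with the largest difference of differences was Sprr2f, which encodes a small proline-rich protein of the kind cross-linked into the envelope of stressed epithelia. Its signal was 19.5 to 134, with a median of 68.9, in the 7-day controls, and 2796 to 4610, with a median of 3045, in the 7-day Aprt KO arrays. At 1 month the controls of pairs 7, 8 and 9 read 51.4, 100.3 and 28.8, and their Aprt KO littermates 10.5, 94.1 and 50.4. The 7-day groups were far apart, while at 1 month all 6 arrays lay at the level of the 7-day controls. On the log2(signal + 29) scale, which understates changes of dim genes, the effect was 5.16 (SE 0.26) at 7 days, a 35.7-fold rise. At 1 month it was -0.21 (95% interval -0.98 to 0.55), and the difference of differences was -5.37 (SE 0.44, limma adjusted p = 3.2e-06). In controls, Sprr2f changed from 7 days to 1 month by -0.24 (SE 0.32).

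Sprr2i and Sprr2g, from the same gene cluster, moved in the same direction by less. Sprr2i read 519 to 886 in the 7-day controls and 1659.8 to 2314 in the 7-day Aprt KO arrays. At 1 month its controls read 961, 1227 and 777 and the Aprt KO arrays 1054, 1024 and 1007, so that the groups overlapped. Sprr2g read 741 to 924 and 1501 to 2146 at 7 days, again without overlap. The difference of differences was -1.23 (SE 0.23) for Sprr2i and -1.06 (SE 0.22) for Sprr2g, with limma adjusted p-values of 0.0205 and 0.0354; without the intensity trend Sprr2g was not called (0.0553). The probe sets of this family can bind transcripts of near-identical members, so how the signal divides among Sprr2f, Sprr2i and Sprr2g is uncertain. Sprr1a, another family member on the list of urothelial genes, had an effect of 0.81 at 7 days and 1.17 at 1 month, and its difference of differences was not called. Of the 8 urothelial genes tested, Sprr2f was the 1 called; the uroplakin gene Upk2, an umbrella cell marker, ran the other way, at -0.47 and 0.97, and was called with the litter block (1.44, SE 0.33, limma adjusted p = 0.0485) but not without it (0.123).

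**Figure D2:**
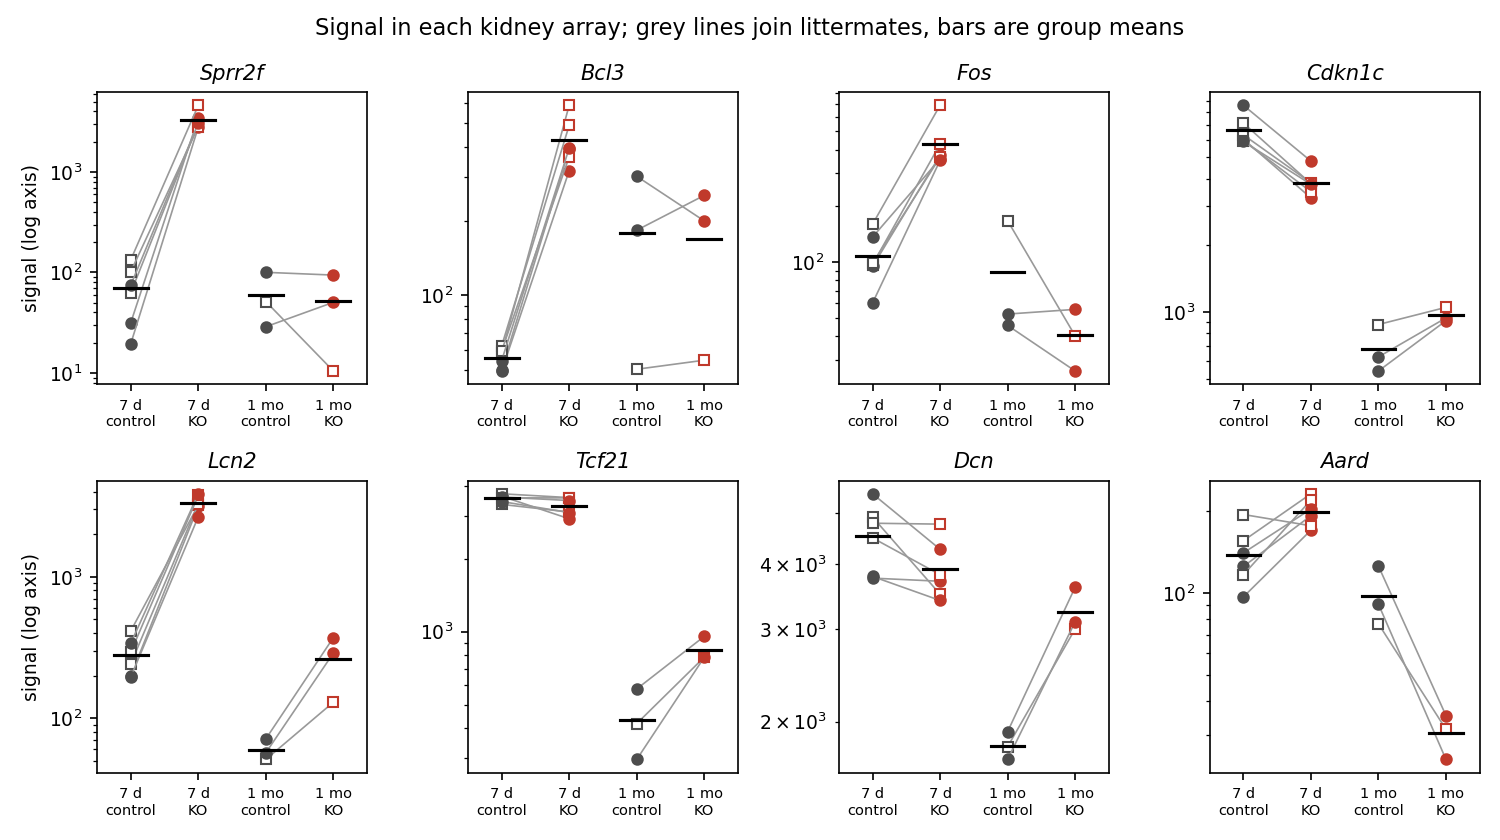
Signal on a log axis in each of the 18 arrays for 8 genes, by age and genotype; grey lines join littermates, open squares are females, filled circles males, and black bars group means. The 7-day Aprt KO arrays of Sprr2f, Bcl3, Fos and Lcn2 stand above all 7-day controls, those of Cdkn1c below; the 1-month Aprt KO arrays of Tcf21 and Dcn stand above, and those of Aard below, their controls.

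Genes of NF-kB and IL-6 family signalling formed the largest set of called genes from 1 list. Of 22 genes tested, 4 were called, against 0.4% of all genes, and all 4 had a smaller effect at 1 month: Bcl3, Il1rn, Osmr and Socs3. The list's median effect was 0.60 at 7 days and 0.14 at 1 month, and its median difference of differences was -0.51, against 0.02 over all genes tested. At 7 days 12 members rose and none fell, against 2.54% and 0.679% of all genes tested; at 1 month none was called in the limma fit, and none had an unadjusted p under 0.05. The calls of Il1rn and Osmr were lost without pair 9 (limma adjusted p = 0.135 and 0.144), that of Il1rn also with a pseudocount of 1 (0.0695), and that of Osmr in 9 of the 18 fits without 1 array. Stat3, the transcription factor that IL-6 family receptors activate, had effects of 0.58 and -0.01; its difference was called with the litter block (limma adjusted p = 0.0208) and not without it (0.203).

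Bcl3, a nuclear IkB-like protein that binds NF-kB subunits, read 49.3 to 62.3 in the 7-day controls and 319 to 588 in the 7-day Aprt KO arrays. At 1 month its controls spread widely, at 50.1, 183 and 303 in pairs 7, 8 and 9, and the Aprt KO littermates read 54.5, 254 and 199.9. The female pair 7 was low and both male pairs were high at 1 month, in either genotype. The effect was 2.40 (SE 0.14) at 7 days and -0.02 (95% interval -0.44 to 0.41) at 1 month, with a difference of differences of -2.41 (SE 0.25, limma adjusted p = 4.29e-05). Il1rn, the secreted antagonist of the IL-1 receptor, rose from 16.3 to 99.1 in controls to 278 to 432 at 7 days. At 1 month it was dim in both genotypes, at 13.5, 35.6 and 40.6 in controls and 16.9, 80.1 and 16.4 in Aprt KO arrays, and the difference of differences was -2.47 (SE 0.45, limma adjusted p = 0.0141).

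Osmr, the receptor subunit for oncostatin M, read 66.5 to 208 in 7-day controls and 562 to 863 in 7-day Aprt KO arrays. At 1 month the controls read 127, 135 and 119.8 and the Aprt KO arrays 198, 187 and 191. The groups were separate at both ages, but the 1-month effect of 0.50 (95% interval -0.08 to 1.08) was not called, and the difference of differences was -1.71 (SE 0.34, limma adjusted p = 0.0269). Socs3, the feedback inhibitor of these receptors, read 113 to 163 and 422 to 776 at 7 days. At 1 month it read 58.4, 122 and 68.3 in controls and 70.8, 128 and 101 in Aprt KO arrays, and its difference of differences was -1.55 (SE 0.26, limma adjusted p = 0.00814). A second Socs3 probe set gave a larger value of -3.31 (SE 0.31).

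The immediate early genes, which are transcribed within minutes of a stimulus, showed the same order of ages. Of 30 tested, 26 had a difference of differences below 0 and 3 were called, Fos, Egr2 and Socs3. Fos and Egr2 passed the filter on dim genes only through the 7-day Aprt KO arrays, with mean signals of 427 and 414 there. Their means were 108 and 91.2 in 7-day controls and at most 88.3 and 102.4 in the 1-month groups. The median effect of the list was 0.47 at 7 days and -0.11 at 1 month; 12 members rose at 7 days (2.54% of all genes did) and none was called at 1 month by limma (0.296% of all genes rose), where 2 had an unadjusted p under 0.05. The 1-month median changed sign, to 0.09, without pair 7 and without the 4 arrays named above, which share the same 1-month estimates. The median difference of differences, -0.50, stayed below 0, at -0.42 and -0.44. Fos read 60.3 to 159 in the 7-day controls and 350.0 to 691 in the 7-day Aprt KO arrays, the highest in pair 2. At 1 month its controls read 167, 52.6 and 45.8 and the Aprt KO littermates 40.3, 55.8 and 26.1, so that pair 7 alone differed by a wide margin. Its difference of differences was -2.37 (SE 0.37, limma adjusted p = 0.00412), and -1.93 (limma adjusted p = 0.0514) without pair 7, which also ended the calls of Egr2 and Socs3.

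Egr2, a zinc finger factor, read 34.0 to 125 in 7-day controls and 363 to 502 in 7-day Aprt KO arrays, and 79.8 to 127 against 53.4 to 135 at 1 month. Its difference of differences was -2.24 (SE 0.35, limma adjusted p = 0.0043). A second, dim Fos probe set gave -0.17 (SE 0.41) and was not called. Junb, Egr1, Ier3 and Gadd45g were not called without the litter block and were called with it; Gadd45g was also called in 6 other alternatives. With the block Junb moved from 0.99 at 7 days to -0.39 at 1 month and Ier3 from 1.16 to -0.14, both with more negative effects at 1 month.

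Of 21 markers of tubular injury tested, 14 rose at 7 days and 3 at 1 month, and of 12 complement and acute phase genes 6 and 3 rose, against 2.54% and 0.296% of all genes. Of the injury markers, Clu, Lcn2 and Sprr2f were called for the difference, all more negative at 1 month. With the litter block Icam1 (-1.08) and Krt8 (-0.49) were called too. The list's median effects were 0.71 and 0.37. Lcn2, the secreted lipocalin used as a marker of acute tubular injury, was the 1 gene called for the difference and at both ages. It read 196 to 414 in 7-day controls and 2657 to 3864 in 7-day Aprt KO arrays. At 1 month controls read 51.0, 56.8 and 71.2 and Aprt KO arrays 129.5, 288 and 371, so the groups were separate at both ages. The effect was 3.47 (SE 0.17), or 11.1-fold, at 7 days and 1.62 (SE 0.23), or 3.08-fold, at 1 month, with a difference of differences of -1.85 (SE 0.29, limma adjusted p = 0.00412). Both folds are of signal + 29, which understates the 1-month fold more, since the controls were dimmer there. With a pseudocount of 1 the difference was still called. A second Lcn2 probe set showed no change at either age (0.10 and -0.01), and the mean over both probe sets was not called for the difference.

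Clu encodes clusterin, a secreted chaperone. Its signal was 1336 to 1790.1 in 7-day controls and 3183 to 6314 in 7-day Aprt KO arrays, the lowest of them in pair 4. At 1 month it was 1812, 1149 and 1509 in controls and 2019.8, 1648 and 2049 in Aprt KO arrays, higher in each pair but with overlapping groups. The difference of differences was -1.37 (SE 0.25, limma adjusted p = 0.0141), and a second probe set gave -1.67 (SE 0.24). Serpina3n, an acute phase inhibitor of serine proteases, read 205 to 297 against 1297 to 2443 at 7 days and 335, 349 and 180.2 against 436, 515 and 351 at 1 month. Its effects of 2.66 (SE 0.17) and 0.58 (95% interval 0.06 to 1.10) gave a difference of -2.08 (SE 0.30, limma adjusted p = 0.00409).

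Cd14, the co-receptor for bacterial lipopolysaccharide on monocytes and macrophages, was the 1 called gene of 21 myeloid genes tested. It read 545 to 689 in 7-day controls and 1469 to 2403 in 7-day Aprt KO arrays. In the 1-month arrays it read 508, 575 and 561 in controls and 745, 747 and 722 in Aprt KO arrays, separate groups with a smaller gap. The difference of differences was -1.33 (SE 0.20, limma adjusted p = 0.00409), with effects of 1.74 and 0.41. The myeloid list as a whole had medians of 0.76 and 0.35, and 17 of its genes rose at 7 days and 1 at 1 month, where 2.54% and 0.296% of all genes did. The summed signal of its 32 genes on the array was 6120 to 10027 in 7-day controls and 13142 to 19765 in 7-day Aprt KO arrays, and 4940 to 6184 against 6241 to 8198 at 1 month. These are whole kidneys, so more cells of a type and more RNA per cell cannot be told apart; the part of myeloid cells in the other 7-day rises was not tested. Tmem176a, which falls outside the rule for named genes and was chosen after its values were seen, completes the 13 genes, with effects of 0.81 and -0.10 and a difference of -0.91 (SE 0.19, limma adjusted p = 0.0453). That call was lost under quantile normalization (limma adjusted p = 0.128), without the filter on dim genes (0.0691), without the sex term (0.101) and without the intensity trend (0.0532).

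**Figure D3:**
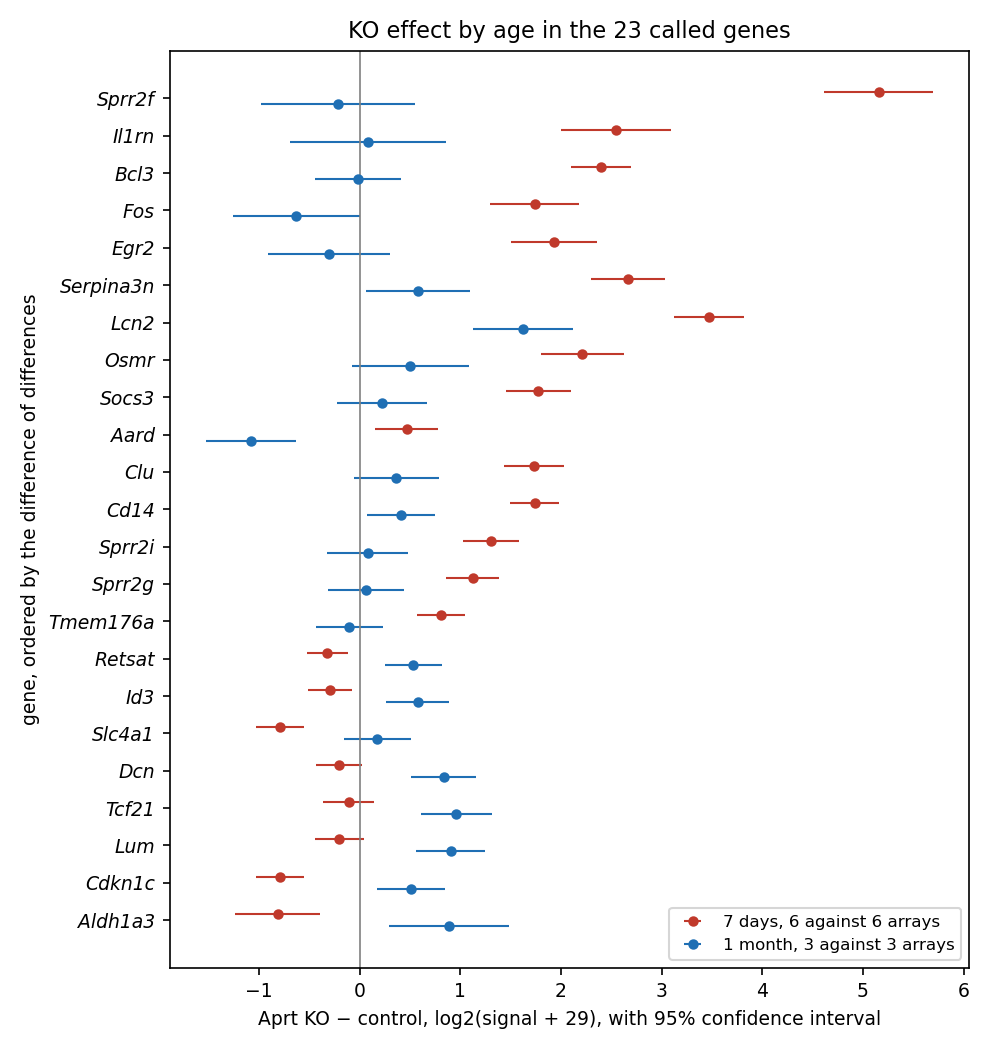
Aprt KO minus control with its 95% confidence interval at 7 days (red) and 1 month (blue) for the 23 called genes, ordered by the difference of differences. The 1-month intervals are the wider ones, with 3 against 3 arrays. The 1-month intervals of Cdkn1c, Aldh1a3, Retsat and Id3 lie above 0 while their 7-day intervals lie below it, and those of Aard lie the other way.

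The 3 genes called lower at 7 days and not called at 1 month are Cdkn1c, Aldh1a3 and Slc4a1, and in each the 1-month estimate was above 0. Cdkn1c encodes p57, an imprinted inhibitor of cyclin-dependent kinases that is high in podocytes. It read 5891 to 8585 in 7-day controls and 3274 to 4802 in 7-day Aprt KO arrays. At 1 month its controls had dropped to 878, 542 and 627, and the Aprt KO littermates read 1049.7, 914 and 940.5. The Aprt KO groups were thus lower than controls at 7 days and higher at 1 month, without overlap at either age. The effects were -0.79 (SE 0.11) and 0.51 (95% interval 0.18 to 0.85), and the difference of differences was 1.30 (SE 0.20, limma adjusted p = 0.00409). The 1-month rise was called with the litter block (limma adjusted p = 0.0154) and not without it (0.402). Quantile normalization ended the call of the difference, with a limma adjusted p of 0.0866. The summed signal of 15 podocyte genes, Cdkn1c among them, was 15537 to 20412 in 7-day controls and 12943 to 16182 in 7-day Aprt KO arrays, and 5134 to 5640 against 6251 to 6626 at 1 month; its part in the result was not tested.

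Aldh1a3, which makes retinoic acid from retinaldehyde, read 871 to 1033 in 5 of the 7-day controls, 450.3 in the control of pair 1, and 419 to 548 in the 7-day Aprt KO arrays. Its 1-month signals were 133, 149 and 184 in controls and 202, 243 and 591 in Aprt KO arrays, the highest in pair 9. The difference of differences was 1.70 (SE 0.35, limma adjusted p = 0.0323). Slc4a1 encodes the anion exchanger of red cells and of acid-secreting collecting duct cells. It read 321 to 629 against 185 to 276 at 7 days, without overlap, and 385, 363 and 328 against 545, 358 and 347 at 1 month, where the groups overlapped. Its difference was 0.97 (SE 0.19, limma adjusted p = 0.0298), and without the sex term it was not called (0.197). The summed signal of 7 blood genes overlapped fully between genotypes, at 17423 to 52296 in 7-day controls and 17262 to 49291 in 7-day Aprt KO arrays.

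The 3 genes called higher at 1 month and not called at 7 days are Dcn, Lum and Tcf21. Decorin and lumican, encoded by Dcn and Lum, are small leucine-rich proteoglycans that bind collagen fibrils, and Tcf21 is a transcription factor of kidney stroma and podocytes. Dcn read 3757 to 5442 in 7-day controls and 3406 to 4763 in 7-day Aprt KO arrays, overlapping groups. At 1 month the controls read 1791, 1913 and 1694 and the Aprt KO arrays 3004, 3608 and 3100.2, well apart. The effects were -0.21 (SE 0.11) and 0.83 (SE 0.15), and the difference of differences was 1.04 (SE 0.19, limma adjusted p = 0.0141).

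Lum read 472 to 774 against 391 to 688 at 7 days, and 126, 129 and 116 against 223, 267 and 283 at 1 month. Its difference was 1.11 (SE 0.20, limma adjusted p = 0.0141). Tcf21 read 3355 to 3711 against 2926 to 3579 at 7 days, and 417, 296 and 579.5 against 784, 783 and 956 at 1 month. Its difference was 1.07 (SE 0.21, limma adjusted p = 0.0222). All 3 genes were much lower in 1-month than in 7-day controls, by -1.32 for Dcn, -2.14 for Lum and -3.02 for Tcf21 on the log2 scale, and the 1-month Aprt KO arrays of Lum and Tcf21 stayed below every 7-day array, while those of Dcn reached into the 7-day range in pair 8. Since the same controls enter both comparisons, these values are given side by side only. The summed signal of 23 stromal genes, Tcf21 among them, was 9343 to 11403 in 1-month controls and 12205 to 13722 in Aprt KO arrays, and 23321 to 27147 against 28322 to 35126 at 7 days; its part in these rises was not tested.

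The fibrillar collagens pointed the same way without passing the test. Col1a1, the main chain of type I collagen, read 5127 to 9363 against 6318 to 11049 at 7 days, with overlap. At 1 month it read 605, 756 and 835 in controls and 1809.6, 2253 and 2166 in Aprt KO arrays. Its difference of differences was 1.08 (SE 0.28; limma adjusted p = 0.141, or 0.00227 with the litter block). Col3a1 gave 0.82 (SE 0.20), with 0.102 and 0.00676. Other probe sets gave smaller values, not called in the limma fit without the block. They were 0.60 (SE 0.24) for Col1a1, and 0.47 (SE 0.26) and 0.29 (SE 0.25) for Col3a1. Of 23 fibrillar collagen and matrix genes tested, none was called by limma without the block and 6 had an unadjusted p under 0.05; with it Col1a1, Col1a2, Col3a1, Mfap2 and Mfap5 were called, all more positive at 1 month. The list's median effect was 0.27 at 7 days and 0.45 at 1 month, and the median of its differences of differences was 0.12. Among 15 matricellular proteins and proteoglycans, Dcn and Lum were called and the median difference was 0.49. With the litter block Ogn (1.14), Smoc2 (1.00) and Tgfbi (-0.66) were called too. Ogn, with effects of -1.03 and 0.11, was called lower at 7 days and not called at 1 month. Among 19 stromal and smooth muscle genes, Tcf21 was the 1 called, and the median difference was 0.05, which was -0.00152 without pair 9.

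Aard, from the list of androgen and sex responsive genes, was the 1 gene of the 23 called lower at 1 month and not called at 7 days. At 7 days it read 96.7 to 195 in controls and 171 to 232 in Aprt KO arrays, higher in 5 of 6 pairs. In the 1-month arrays it read 76.9, 126 and 90.9 in controls and 31.4, 35.3 and 24.3 in Aprt KO arrays, lower in the female pair and in both male pairs. The effects were 0.47 (SE 0.15) and -1.08 (SE 0.21), and the difference of differences was -1.55 (SE 0.26, limma adjusted p = 0.00814). Of 13 genes of this list 11 had a difference below 0, with a median of -0.53. With the litter block Aoc1, Cyp2e1 and Cyp7b1 were called for the difference too, all more negative at 1 month. Cyp7b1 (0.15 at 7 days and -1.16 at 1 month) was called at 1 month alone. Aoc1 (1.53 and 0.60) and Cyp2e1 (0.58 and -0.28) were called higher at 7 days alone. Kap, the androgen-regulated kidney protein, was not called at either age or for the difference (0.28, SE 0.45); with the litter block its 7-day effect of -0.34 was called (limma adjusted p = 0.00362), and it was lower in 6 of 6 pairs.

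Retsat, a retinol saturase, and Id3, which blocks basic helix-loop-helix factors, had opposite effects at the 2 ages that were called only as a difference. Retsat read 389 to 568 against 332 to 383 at 7 days, and 2059, 1354 and 1548 against 2682, 2091 and 2382 at 1 month. Id3 read 1702 to 2129.9 against 1262 to 1823 at 7 days, and 799, 424 and 498 against 1077, 661 and 830.2 at 1 month. Each Aprt KO array lay below its littermate at 7 days and above it at 1 month. The differences were 0.85 (SE 0.16) and 0.87 (SE 0.18), with limma adjusted p-values of 0.0222 and 0.0392. Leaving out the sex term ended both calls (limma adjusted p = 0.0666 for Retsat and 0.243 for Id3), and Id3 also lost its call under quantile normalization (0.0758) and without the intensity trend (0.0657). With the litter block both single effects of both genes were called, as were those of Cdkn1c, and these 3 were the genes called in opposite directions at the 2 ages.

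The next genes after Aard by the p-value of the difference, among genes lower at 1 month with the larger effect there, were not called. These 4 were Gadd45g, Cldn6, Skap2 and Abcf3, and all 4 had 7-day estimates above 0. Cldn6, a claudin of immature epithelia, read 543 to 942 against 674 to 1118 at 7 days, and 50.3, 61.3 and 69.9 against 35.6, 12.9 and 19.2 at 1 month. Its difference of differences was -1.06 (SE 0.25; limma adjusted p = 0.102, or 0.0102 with the litter block). Gadd45g, a growth arrest gene, had effects of 0.53 and -0.67 and a difference of -1.20 (SE 0.27, limma adjusted p = 0.0678, or 0.0417 with the block). Skap2 and Abcf3 had differences of -0.72 and -0.73, with 0.123 and 0.236, or 0.0473 and 0.0496 with the block. The effects at 7 days and 1 month were 0.31 and -0.41 for Skap2, 0.18 and -0.55 for Abcf3 and 0.25 and -0.81 for Cldn6. With the block Cldn6 was called at 1 month alone, Gadd45g at 7 days alone, and Skap2 and Abcf3 at neither age.

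The litter block added 70 genes, whose names were chosen after their values were seen. Of these, 25 were called lower at 7 days and 16 called higher, without a called effect at 1 month. The falls included distal tubule genes. Klk1, the renal kallikrein, had a median of 1486 in 7-day controls and 565 in 7-day Aprt KO arrays, and of 8317 and 10555 at 1 month. Its effects were -1.32 and 0.23, with a block difference of 1.55 (SE 0.23, limma adjusted p = 0.00504; 0.123 without the block). Egf, a growth factor precursor of the distal tubule, read 568 to 1251 against 236 to 657 at 7 days, and 13379.7, 8215 and 10995 against 11772, 8076 and 11736 at 1 month. Its effect of -1.18 (SE 0.21) at 7 days was called, that of -0.04 (95% interval -0.66 to 0.59) at 1 month was not, and the difference of 1.14 (SE 0.36) had a limma adjusted p of 0.365, or 0.0147 with the block. A second, dim Egf probe set gave a difference of -0.51 (SE 0.38) and was not called.

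S100g, Slc12a3 and Kcnj1 completed the 5 genes of the thick limb and distal tubule list called with the block, of 15 tested; none was called by limma without it, and 7 had an unadjusted p under 0.05. The list's median effect was -0.31 at 7 days and 0.02 at 1 month, and the latter was -0.02 without pair 9. Umod, the uromodulin gene of the thick limb, was not called, with effects of 0.02 and -0.01 and a difference of -0.03 (SE 0.23). Outside this list, Hsd11b2, the collecting duct enzyme that inactivates glucocorticoid, moved from -0.79 to 0.01, and the glutathione transferases Gsta2 and Gsta4 from -0.74 to 0.51 and from -0.71 to 0.61, in the block fit.

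Across the 35 gene lists, 13 held a called gene and 22 held none, though 9 of the 22 held one with the litter block. Besides those described, 2 of 12 podocyte genes were called, Cdkn1c and Tcf21, both more positive at 1 month, and both sit in other lists too. The podocyte median was -0.09 at 7 days and 0.25 at 1 month, and 11 of 12 genes had a difference above 0. None of 16 endothelial genes was called by limma, 8 had an unadjusted p under 0.05, and 14 had a difference above 0, with medians of -0.17 and 0.23; Icam2, an endothelial adhesion molecule, was called with the litter block (0.83, limma adjusted p = 0.0318). Oxidative phosphorylation (47 genes), cell cycle (41), proximal tubule (43) and nephron formation (17) had no called member in the limma fit, and median differences of 0.09, 0.05, 0.11 and 0.06; 0, 0, 8 and 1 of their genes had an unadjusted p under 0.05. With the litter block 4 proximal tubule genes were called, Cyp2e1 more negative and Gsta2, Miox and Slc7a8 more positive at 1 month, and none of the other 3 lists' genes. The cell cycle median was -0.05 without pair 7 and -0.10 without the 4 arrays. Of 12 interferon response genes and 17 antigen presentation genes none was called by limma, and 0 and 1 had an unadjusted p under 0.05. The median differences were 0.07 and -0.05. The latter changed sign without pair 7 and without the 4 arrays, which share their 1-month estimates.

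**Figure D4:**
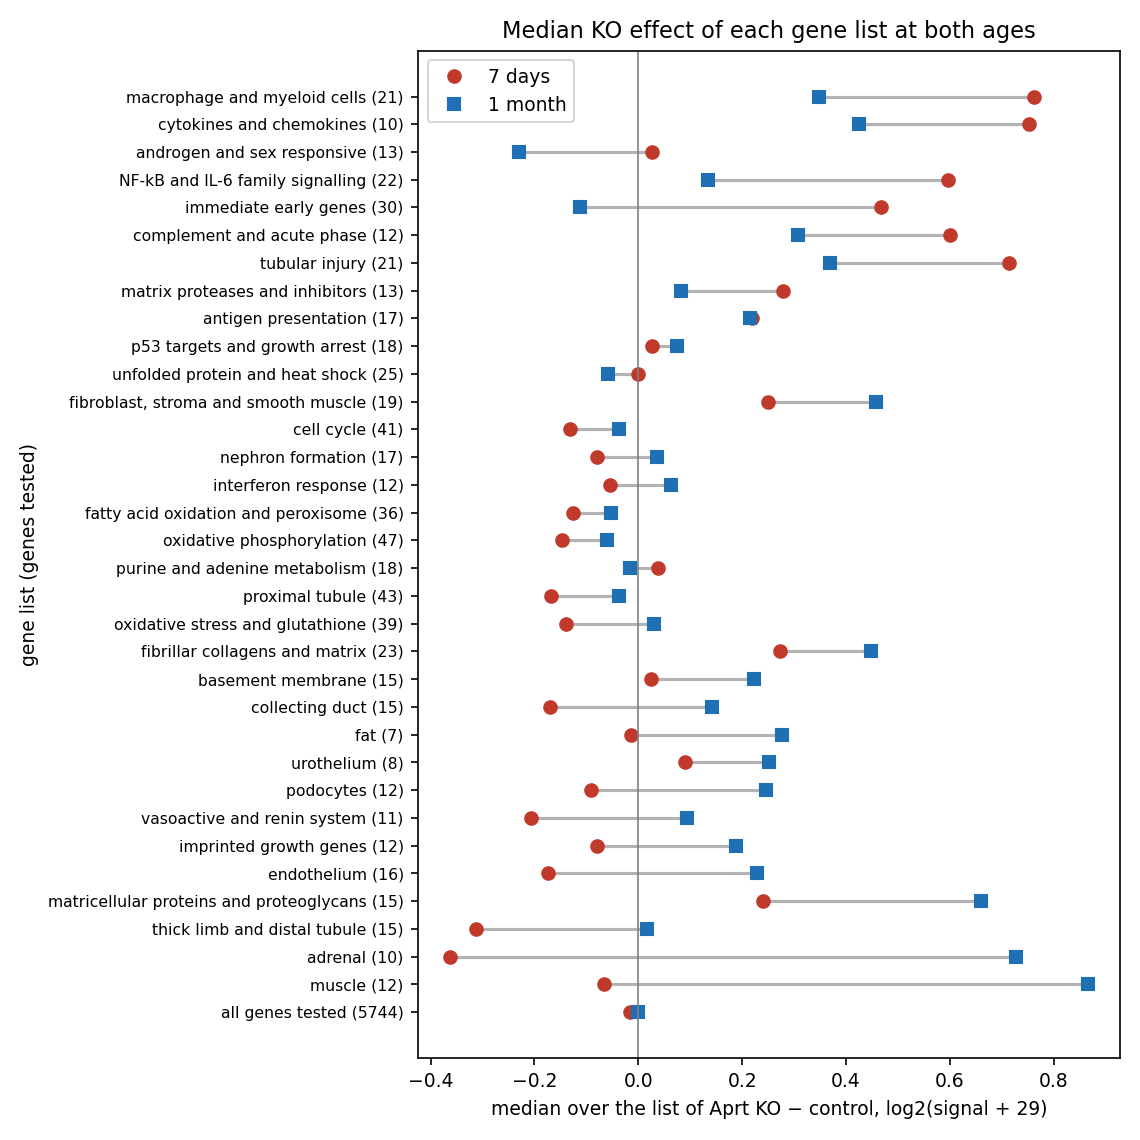
Median Aprt KO minus control effect over each gene list with at least 7 tested genes, at 7 days (red circles) and 1 month (blue squares), in log2(signal + 29), ordered by the median difference of differences, with all 5744 genes at the bottom. Injury, myeloid and signalling lists lie further right at 7 days; the muscle and adrenal lists, at 0.87 and 0.73, lie furthest right at 1 month.

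Most genes called at 1 age alone were not called for the difference between ages. At 7 days 146 genes (2.54%) rose and 39 (0.679%) fell, and at 1 month 17 (0.296%) rose and 1 (0.0174%) fell. With the litter block the 7-day calls were 278 higher and 222 lower, a far smaller excess of rises, and the 1-month calls 72 higher and 7 lower. Of the 178 genes called at 7 days and not at 1 month, 162 were not called for the difference. Of the 11 called at 1 month and not at 7 days, 7 were not: Col1a2, Smoc2, Col3a1, Col1a1, Mfap2, Postn and Crip1. With the litter block the difference was called for the first 5 of these, with limma adjusted p-values of 0.00145 for Col1a2, 0.00717 for Smoc2, 0.00676 for Col3a1, 0.00227 for Col1a1 and 0.017 for Mfap2. The block also called the 7-day effects of Col1a1, Col3a1, Postn and Crip1 (limma adjusted p = 0.0104, 0.0438, 0.00744 and 0.0134). The median standard error was 0.14 for the 7-day effect, 0.20 for the 1-month effect and 0.24 for their difference, so the 1-month comparison was the less precise. The 146 genes that rose at 7 days had a median effect of 0.81 there and 0.25 at 1 month, where 115 had the same sign; for 45 of them the 95% interval at 1 month included the 7-day estimate. For the 39 that fell, the medians were -0.65 and -0.03, and 21 kept the sign. These genes were chosen on their 7-day values, so a smaller 1-month median is a description.

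There were 7 genes called at both ages, all higher in Aprt KO, which is 3.78% of the 7-day calls and 38.9% of the 1-month calls. Apart from Lcn2 they were Krt19, S100a6, Cfi, Penk, Lsp1 and Serping1, and in these 6 the difference was not called. Penk is on the list of adrenal genes, whose signal varied between arrays (below). With the litter block 36 genes were called at both ages (7.2% of the 7-day and 45.6% of the 1-month calls), 3 of them in opposite directions and 28 without a called difference. Krt19, a keratin of simple epithelia, read 356 to 598 against 1715 to 2252 at 7 days and 161, 82.9 and 128 against 278, 285 and 451 at 1 month. Its difference was -0.80 (95% interval -1.33 to -0.27, limma adjusted p = 0.364). S100a6, a calcium-binding protein, had effects of 1.19 and 1.07 and a difference of -0.11 (95% interval -0.68 to 0.45). Cfi, the complement protease factor I, read 249.8 to 413 against 1146 to 1742 at 7 days and 65.9, 11.8 and 37.7 against 149, 102 and 67.6 at 1 month, with a difference of -0.96 (95% interval -1.47 to -0.45, limma adjusted p = 0.123). Over all 5744 genes the effects at the 2 ages, which share no arrays, correlated at a Pearson r of 0.224 and a Spearman rho of 0.169.

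RNA of neighbouring tissues varied between arrays. The summed signal of 20 skeletal muscle genes was 19059 in the 1-month Aprt KO array of pair 9 and 3776 to 8044 in the other 17 arrays. Acta1, skeletal actin, read 3978 in that array and 2.18 to 12.0 in the 1-month controls. It was also high in the Aprt KO array of pair 7 (472) and in the control and Aprt KO arrays of pair 4 (1662 and 1842). The summed signal of 11 adrenal genes at 1 month was 3702 to 5773 in controls and 4674 to 8793 in Aprt KO arrays, with Cyp11a1, the first enzyme of steroid synthesis, at 688 and 287 in the Aprt KO arrays of pairs 8 and 9. At 7 days Cyp11a1 ran the other way in pairs 1 and 6, at 534 and 442 in the controls against 19.5 or less in their Aprt KO littermates, and was high in both arrays of pair 2 (445 and 466). Star, which carries cholesterol to that enzyme, moved likewise, at 274 and 269.6 against 18.7 and 12.5. The adrenal list's median effect was -0.36 at 7 days, or 0.07 without the 4 arrays against their Aprt label, so both ages enter its difference. Fat genes summed to 11112 and 11978 in the Aprt KO arrays of pairs 8 and 9 and to 6435 to 8218 in the 1-month controls. The muscle and adrenal lists had median differences of 0.90 and 0.82 with no gene called by limma and 4 and 1 with an unadjusted p under 0.05, and the muscle median was 0.34 without pair 9. In the Aprt KO array of pair 7 the muscle sum was 7053 and the fat sum 5583. The part of these tissues in the results was not tested. Without pair 9 the difference of differences was 1.03 for Dcn, 1.01 for Lum and 1.20 for Tcf21, with limma adjusted p-values of 0.0959, 0.137 and 0.00396.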

How the data were processed

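Kidney RNA of 18 mice was measured on Affymetrix arrays. The submitters' processing notes name GCOS and MAS5, with no version; the authors deposited linear signal intensity per probe set, and how it was scaled is not stated there. The trimmed mean was about 500 on each array. Of 12488 probe sets, GEO's annotation of the platform gave 10833 a single gene symbol and 396 more than 1 symbol; 66 were control sets and 1193 were unnamed here. The brightest probe set per gene was kept (8251 genes), and genes with a mean signal under the 40th percentile (118.6) were left out, which left 5744. That mean was taken over all 18 arrays, so a gene high in 1 group alone could pass through that group. Values were taken as log2(signal + 29), 29 being the 20th percentile of all signals.

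Each gene was fitted in limma 3.58.1 (R 4.3.3, lmFit, eBayes with trend) with 4 group means and 1 sex term per age. This main fit had no term for the litter pair. The fit had 12 residual degrees of freedom. P-values are two-sided and Benjamini-Hochberg adjusted over 5744 genes, and called means adjusted p under 0.05. The number of arrays limits the precision. The fit was also run on simulated data with errors independent between arrays, without litter correlation. That run is therefore no check on the missing litter term.

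The labels name each mouse's littermate. Within the 9 litter pairs, the littermates' deviations from their group means had correlations of 0.239 to 0.673, and 12 of 18 arrays correlated best with their own littermate, so the litter pair was fitted as a block and its result is printed where it changes a call.

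The genes and gene lists were chosen with earlier results of these data known. Named were, per class and direction, the 12 genes with the largest difference of differences; where a direction of the 1-month class held under 5 genes, the 5 with the smallest p running that way; up to 3 called members of each list; the 3 genes called at both ages with the largest smaller effect; and Aprt, Lcn2, Clu, Krt19, Col1a1, Col3a1, Egf, Umod, Kap and Aard. Other genes were named after their values were seen, as the text says or as members of a count. Alternatives were other pseudocounts, quantile normalization, other filters, the mean over probe sets, fixed and random litter blocks, no sex term, no trend, each age alone, array weights and each array left out; without pair 4, without pair 9 and without the 4 arrays against their Aprt label were chosen after seeing the data.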

Additional observations from a re-analysis of the deposited data

Results flagged for a closer look

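In 23 genes the Aprt KO effect differed between 7 days and 1 month by limma's test of the difference itself. The effect was more negative at 1 month, as the log2 effect at 1 month minus that at 7 days, for Sprr2f (-5.37), Il1rn (-2.47), Bcl3 (-2.41), Fos (-2.37), Egr2 (-2.24), Serpina3n (-2.08), Lcn2 (-1.85), Osmr (-1.71), Socs3 (-1.55), Aard (-1.55), Clu (-1.37), Cd14 (-1.33), Sprr2i (-1.23), Sprr2g (-1.06) and Tmem176a (-0.91). It was more positive for Aldh1a3 (1.70), Cdkn1c (1.30), Lum (1.11), Tcf21 (1.07), Dcn (1.04), Slc4a1 (0.97), Id3 (0.87) and Retsat (0.85).

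Single arrays stood apart from the other 5 of their 7-day group in 6 of 70 combinations of a named gene and a group; chance flags about 1 in 20 groups. Among the 7-day Aprt KO arrays these were Fos in pair 2, with a signal of 691, and Clu (3183), Gadd45g (220.0) and Kap (5675) in pair 4. Among the 7-day controls they were Egr2 (34.0) and Aldh1a3 (450.3), both in pair 1.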

How the results depend on the processing

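The count of 23 genes with a called difference was 18 to 28 under both other pseudocounts, quantile normalization, both other filters, the mean over probe sets, no sex term, no trend and without pair 4. With the litter pair as a replicate block it was 93, with a random block 142, with array weights 154, without the 4 arrays against their Aprt label 7, and without pair 9 it was 14. Leaving out 1 array gave 8 to 37. The count was 8 without either array of pair 7, which is the same fit. It was 12 and 15 without the Aprt KO or the control array of pair 9, and 37 without the control of pair 3. The share of called genes that were more negative at 1 month was 65.2%, and 40.9% with the block, 46.5% with the random block and 50% with the stricter filter. The cause of these shifts was not tested.

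In the same order, block, random block, array weights, without the 4 arrays and without pair 9, the class of 16 genes called at 7 days alone held 56, 81, 78 and 5 (without pair 9 within 1.5 times), the 4 called at 1 month alone 19, 29, 45, 1 and 2, the 1 called at both ages 8, 13, 19 and 0 (the last without pair 9), and the 2 called at neither 10, 19, 12, 0 and 1. The 7-day calls (185) were 500, 522 and, without the 4 arrays, 97. The 1-month calls (18) were 79, 117, 267, 3 and 5, and 28 with a pseudocount of 1, 7 with a pseudocount at the 40th percentile, 9 with the mean over probe sets and 1 with each age alone. With the larger pseudocount the 1-month, both-age and neither-age classes held 2, 2 and 4; with each age alone 0, 0 and 6. The neither-age class held 1 with quantile normalization, 0 without the sex term and 1 without the trend, and the both-age class 0 with the mean over probe sets. Leaving out 1 array gave 129 to 202 calls at 7 days, 4 to 19 at 1 month, and 6 to 27, 0 to 5, 0 to 1 and 1 to 5 genes in the 4 classes.

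Among uncalled genes the difference changed sign for Umod (0.0775 with array weights; -0.223 to 0.197 over the fits without 1 array), S100a6 (0.267 without the 4 arrays; -0.346 to 0.18 over the fits without 1 array, highest without pair 7) and Kap (-0.0551 without the 4 arrays). None of the 23 called genes changed direction under any of these alternatives. Signals of 3 against 3 arrays limit the 1-month effects.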

Other observations

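Uroplakin genes, which mark the umbrella cells of the urothelium, fall outside the rule for named genes; Upk2 was picked with its values in view. Upk2 read 80.5 to 250.4 in 7-day controls and 76.4 to 163 in 7-day Aprt KO arrays. At 1 month it read 144 to 186 in controls and 294 to 406 in Aprt KO arrays, which did not overlap.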
